A study of Solanum lycopersicum with 36 samples.

Results

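Cleavage sites of miRNAs on tomato transcripts were compared between heat and drought in leaves of tomato 'Jinlingmeiyu'. A site was 1 set of reads over the 12 degradome libraries on 1 transcript. Of 576 sites in the lists of the 4 treatments, the 206 with at least 10 reads over the 12 libraries were tested, and these lay on 188 transcripts and held 97.8% of the reads. The other 370 sites were too thinly read to be tested. The site of NUP107 (Solyc12g049410), which was to be described whatever its values, was among those. Of the 206, 49 had no read at heat, 19 had none at drought, and 6 of these had none at either. Listing depended on the detection of a site by the authors in a treatment, and a site missing from a list was taken as 0 reads.

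Degradome libraries were made from leaves of wild type plants, 3 biological replicates for each of 4 treatments. Heat plants were irrigated and moved to 38 °C by day. Drought plants were kept at 26 °C after 3 days without irrigation. Combination plants had no irrigation and 38 °C, and control plants had irrigation and 26 °C. Water was withheld from seedlings that were 24 days old, treatments ran for 48 h per the labels, and by the study's methods the sequenced leaves were those of 36 h.

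In plants, a miRNA guides an argonaute protein to a nearly complementary stretch of a transcript, and the protein cuts the transcript opposite the middle of the miRNA. The 3′ piece keeps a free 5′ phosphate, which degradome sequencing captures, so that reads starting at such a point count the pieces left by cutting. Many conserved plant miRNAs target transcription factors of growth and development, others target copper proteins or parts of the small RNA pathway, and in the tomato family several target resistance genes. Reads at a site depend on the amount of transcript as well as on its cutting, and the contributions of these cannot be told apart here.

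The sequences below are those of the miRNAs with the most small RNA reads at some of the sites that passed the heat vs drought test. Other sites that passed are not covered here. Sequences run 5′ to 3′ as DNA letters, with bases 2 to 8, the seed, in capitals. For the sites lower at heat these were as follows.
sly-miR482b: tCTTGCCTacaccgcccatgcc
sly-miR6025_stu: tACCAATAattgagataacatc
sly-miR6027-3p: tGAATCCTtcggctatccata
sly-miR172a: aGAATCTTgatgatgctgcat
sly-miR171e: tTGAGCCGcgtcaatatctct
sly-miR393-5p_stu: tCCAAAGGgatcgcattgatcc
sly-miR167a-5p_ath: tGAAGCTGccagcatgatctt
PC-326-3p: tTAATTGAattaaattgta
For the sites higher at heat these were as follows.
sly-miR160a: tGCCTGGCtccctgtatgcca
sly-miR156a: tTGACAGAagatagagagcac
sly-miR156d-5p: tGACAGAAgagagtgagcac
sly-miR166c-3p: tCGGACCAggcttcattcctc
sly-miR398b-3p_stu: tGTGTTCTcaggttacccctg
sly-miR403-3p: cTAGATTCacgcacaagctcg
PC-287-5p: tCTTCAACctcgaccgtgatt
No seed was shared between these. In the names, PC marks a candidate miRNA predicted by the authors. The R1B-16 and R1B-17 sites, both lower at heat, shared sly-miR6027-3p, and the REV and At3g13860 sites, both higher at heat, shared sly-miR166c-3p.

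Heat libraries held fewer reads at listed sites than drought libraries. Reads summed to 2678, 2382 and 3884 in the 3 heat libraries and to 6342, 7239 and 7498 in the 3 drought libraries, and the groups did not overlap. The mean was 2981 ± 796 reads at heat and 7026 ± 607 reads at drought (SD, n = 3 each; exact permutation test, two-sided p = 0.1, the smallest that 3 against 3 libraries allow). The number of listed sites with reads lay between 137 and 214 at heat and reached 177 at most at drought, so it overlapped. Reads were therefore rescaled, so that values below are scaled reads, the reads divided by the relative size of the library (0.487 to 1.10 at heat and 1.80 to 1.85 at drought). Temperature and the number of listed reads cannot be told apart in this design. Among the tested sites, 2 lay on transcripts annotated with photosynthesis functions, as leaf tissue has.

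**Figure D1:**
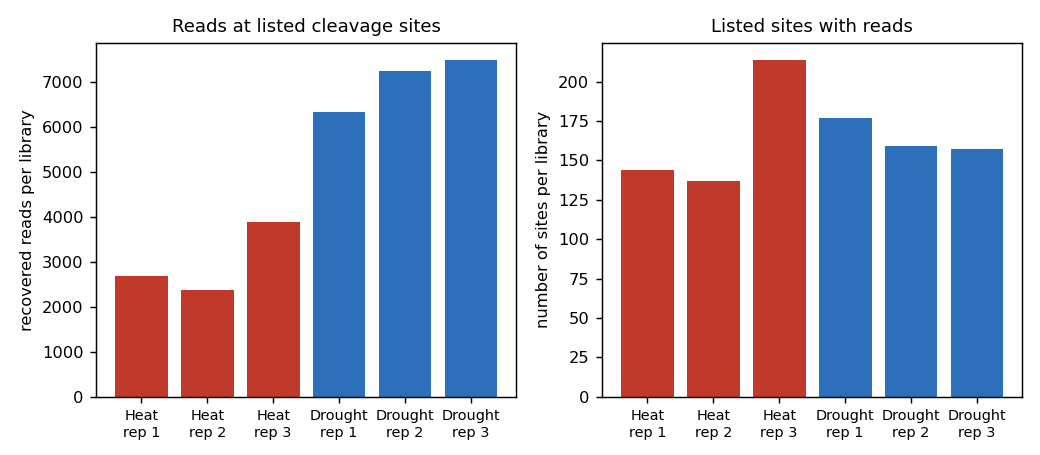
Recovered reads at listed cleavage sites (left, reads per library) and listed sites with reads (right, sites per library) in the 3 heat and the 3 drought libraries. Each bar is 1 library, and every heat library had fewer reads (up to 3884) than every drought library (from 6342), while the numbers of sites overlapped.

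Of the 206 sites, 30 (14.6%) passed the test for heat vs drought (limma on log2(scaled reads + 1), Benjamini-Hochberg adjusted p under 0.05, two-sided), of which 15 (7.28%) were higher and 15 (7.28%) were lower at heat. Among the higher sites were those of a heat shock protein, SPL6, a ribosomal protein and NAC100, and among the lower ones those of a carbonic anhydrase, resistance proteins and a receptor-like kinase. Libraries of the 2 treatments did not overlap for 47 of the 206 sites (22.8%) and for 28 of the 30. The median log2 fold change (log2FC) of all 206 sites was -0.37. The log2FC values below are not centred on that shift and were tested against 0. Sites were grouped in lists by the family of their most abundant miRNA, so a list also holds transcripts outside the usual targets of that family, and the counts of each list stand beside 7.28% of all sites higher and 7.28% lower.

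The balance of higher and lower sites rested on the scaling. With the deposited values 3 sites were higher and 28 lower (median log2FC -0.79), and with deposited values divided by the share of reads mapped in each treatment 21 were higher and 10 lower (median log2FC -0.25). Of the 15 lower sites, 10 passed the test in all 4 other scalings, and all 15 kept their sign. Of the 15 higher sites, 3 passed in all 4 (HSP22.7, ARF17 and the sly-miR156d-5p site of SPL6). Of the 15, 14 kept their sign, the exception being Solyc12g014120 at -0.031 with the deposited values. The number of calls was 32 without drought replicate 1, 11 without drought replicate 2, 7 without drought replicate 3, 9 without heat replicate 1, 8 without heat replicate 2 and 13 without heat replicate 3. The sites of HSP22.7, At1g67520, At4g27220 and R1B-16 were called in all 6 of these fits, and each of the other 26 lost its call in at least 1.

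**Figure D2:**
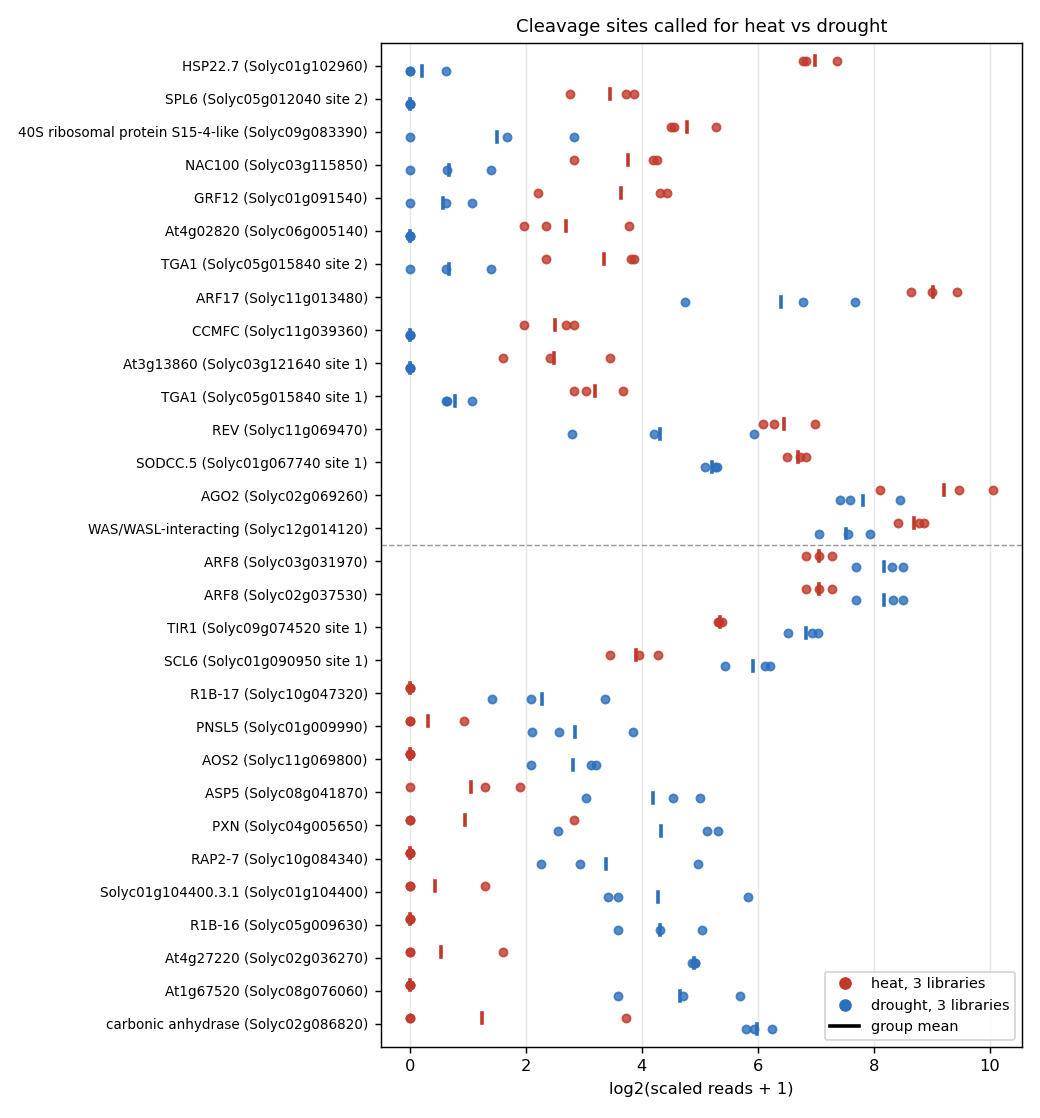
The 30 cleavage sites called for heat vs drought, in order of log2FC, with log2(scaled reads + 1) on the horizontal axis. Points are libraries (heat above drought within each row, 3 each), short bars are group means, and the dashed line parts the 15 sites higher at heat from the 15 lower. Groups overlap for AGO2 and PXN.

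The site of PC-287-5p on HSP22.7 (Solyc01g102960), a small heat shock protein of class IV, had the highest log2FC. It held 109, 164.2 and 114 scaled reads at heat, against 0, 0.540 and 0 at drought. In reads, these were 280 in the heat libraries and 1 in the drought libraries. The log2FC was 6.79 ± 0.98 (SE, n = 3 each; limma adjusted p = 9.36e-06). The combination libraries had 41.7, 13.0 and 0 and the control libraries 0 each, so the reads were found at 38 °C in 5 of 6 libraries. Small RNA reads of PC-287-5p itself averaged 0 normalized reads at heat and 1.84 ± 3.19 at drought (SD, n = 3 each).

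Resistance genes and receptor-like proteins are the usual targets of miR482 and of miRNA families known from the tomato family such as miR6024, miR6025 and miR6027. Of the 27 tested sites of these families, 14 lay on such genes by their annotation. At heat 6 of the 27 were lower and 0 higher, beside 7.28% of all sites each way, and 4 of the 6 were among the 14. The median log2FC was -0.91 over the 27, -1.13 over the 14 and -0.37 over all sites. The RLP12 sites of Solyc01g005720 and Solyc01g005760 held split reads with the same log2FC (-1.07), and both were counted in these medians. Of the 27, 12 had no read at heat and 2 had none at drought, beside 49 and 19 of all 206. Together the 27 sites took 0.551, 0.511 and 0.852% of the scaled reads of the heat libraries, against 4.13, 4.91 and 6.11% at drought. These shares do not depend on the scaling between libraries. The combination libraries had 0.926 to 3.54% and the control libraries 6.51 to 8.05%.

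At4g27220 (Solyc02g036270), annotated as a probable disease resistance protein and cut by sly-miR482b, had 0, 2.05 and 0 scaled reads at heat, against 29.4, 28.1 and 29.1 at drought. Drought libraries had an SD of 0.702, and a single read was found at heat (log2FC -4.36 ± 0.86 SE, limma adjusted p = 0.000511). At1g67520 (Solyc08g076060), a lectin receptor-like kinase cut by sly-miR6025_stu, had no read at heat, against 11.1, 25.4 and 50.5 scaled reads at drought. The floor of 3 reads over the heat libraries makes it at least 22-fold lower (limma adjusted p = 0.000327). Like the bounds below, this takes a site missing from a list as 0 reads.

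R1B-16 (Solyc05g009630) and R1B-17 (Solyc10g047320) are annotated as late blight resistance homologs, and both are cut by sly-miR6027-3p. R1B-16 had no read at heat, against 11.1, 18.9 and 31.8 scaled reads at drought, at least 15.7-fold lower (limma adjusted p = 0.000962). R1B-17 had no read at heat either, against 1.66, 3.24 and 9.33 at drought, at least 3.6-fold lower (limma adjusted p = 0.0436). Their control levels parted, with 29.8, 6.08 and 33.6 scaled reads for R1B-16 and 0.764, 0 and 0.715 for R1B-17.

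The other sites of these families which fell lay on no resistance genes by their annotation. PXN (Solyc04g005650), a peroxisomal NAD carrier with a site of sly-miR5300, had 0, 6.16 and 0 scaled reads at heat, against 33.8, 4.86 and 39.0 at drought, so the groups overlapped (log2FC -3.38 ± 1.01 SE, limma adjusted p = 0.0279). PNSL5 (Solyc01g009990), a peptidyl-prolyl isomerase with a site of sly-miR6024, had 0, 0 and 0.909 at heat, against 3.33, 13.5 and 4.94 at drought (log2FC -2.54 ± 0.85 SE, limma adjusted p = 0.0444). PAF1 (Solyc04g080590), a proteasome subunit singled out after its values were seen, had 2.90, 2.05 and 2.73 at heat, against 1.11, 59.9 and 56.0 at drought, and did not pass (limma adjusted p = 0.0937).

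The SPL factors promote the passage from juvenile to adult growth and flowering and are held down by miR156. Of 20 sites assigned to miR156 or miR157, 12 lay on SPL genes. At heat 3 of the 20 were higher, all on SPL genes, and 1 was lower, beside 7.28% of all sites each way (median log2FC -0.31 over the 20 and 0.71 over the 12, beside -0.37 over all sites). The site of sly-miR156d-5p on SPL6 (Solyc05g012040) had 5.79, 12.3 and 13.6 scaled reads at heat, against 0 in all 3 drought libraries, at least 19.3-fold higher (limma adjusted p = 0.0175). The control libraries had 6.12, 22.3 and 5.0 there, so that heat and control overlapped (heat vs control log2FC 0.14, limma adjusted p = 0.972). Site 1 on the same transcript, of sly-miR156a, had the other sign and did not pass (log2FC -1.60, limma adjusted p = 0.276). On other SPL6 transcripts the log2FC was -0.85 and -1.42 (Solyc03g114850) and 0.28 and 2.59 (Solyc12g038520), and none of these sites passed. On TGA1 (Solyc05g015840), a name taken from a maize SPL gene, site 1 had 7.24, 6.16 and 11.8 at heat, against 0.555, 0.540 and 1.10 at drought, and site 2 had 13.0, 4.11 and 13.6 at heat, against 0, 0.540 and 1.65 at drought. Their log2FC was 2.41 ± 0.84 and 2.67 ± 0.91 (SE; limma adjusted p = 0.0462 and 0.0453). The most read SPL site, on SPL14 (Solyc10g078700), had 5.79, 12.3 and 20.9 at heat, against 29.9, 12.4 and 22.0 at drought, and overlapped. The site that fell lay on ASP5 (Solyc08g041870), an aspartate aminotransferase assigned to the other strand of the precursor, sly-miR156a-p3_stu, with 1.45, 0 and 2.73 at heat, against 7.21, 22.12 and 31.3 at drought.

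Sites in auxin signalling moved apart. ARF17 (Solyc11g013480), an auxin response factor cut by sly-miR160a, had 515, 688 and 401 scaled reads at heat, against 205, 25.9 and 109 at drought (log2FC 2.63 ± 0.48 SE, limma adjusted p = 0.000327). Beside HSP22.7 it was the only higher site with an adjusted p under 0.01. The sites of sly-miR167a-5p_ath on the 2 ARF8 transcripts (Solyc02g037530 and Solyc03g031970) fell. On Solyc02g037530 these were 132, 155 and 114 scaled reads at heat, against 319.4, 205.6 and 362 at drought, and on Solyc03g031970 nearly the same (log2FC -1.11 ± 0.38 SE, limma adjusted p = 0.0447). These transcripts share their reads, which were split between them, and are in effect 1 observation. The counts of called sites include both. With the pair counted once, 29 of 205 sites passed, 15 higher and 14 lower. TIR1 (Solyc09g074520), an auxin receptor cut by sly-miR393-5p_stu, had 39.1, 39.0 and 40.9 at heat, against 91.0, 122 and 131 at drought (log2FC -1.49 ± 0.49 SE, limma adjusted p = 0.0436). A second site on TIR1 had no read at heat and at most 0.555 at drought. Of the 7 sites of miR160 and miR167, 6 lay on ARF genes and 1 on CYT1 (Solyc03g096730), a GDP-mannose pyrophosphorylase. Besides ARF17 and the ARF8 pair none of them passed, and the 7 together took 24.9% of the scaled reads at heat and 27.6% at drought.

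The HD-ZIP III factors set leaf polarity and vascular pattern, and 7 of the 11 sites of miR165 and miR166 lay on them. Of the 11, 2 were higher and 0 lower (median log2FC 1.06, and 0.80 over the 7). The log2FC was positive at 7 of the 11 and negative at 4. The ATHB-15 sites had the other sign and did not pass. Their log2FC was -0.65 on Solyc03g120910, -0.65 on Solyc12g044410 and -0.71 on Solyc08g066500. Those on Solyc03g120910 and Solyc12g044410 had the same log2FC, and both were counted in these medians. REV (Solyc11g069470) had 76.7, 125 and 67.2 scaled reads at heat, against 59.9, 5.94 and 17.6 at drought (log2FC 2.14 ± 0.65 SE, limma adjusted p = 0.0296). The other site that rose is on no HD-ZIP gene but on At3g13860 (Solyc03g121640), a chaperonin of the CPN60 kind, with 4.34, 2.05 and 9.99 at heat, against 0 in all drought libraries, at least 9.98-fold higher. The most read site, on ATHB-14 (Solyc02g069830), had 195, 189 and 149.9 at heat, against 124, 75.0 and 111 at drought. These did not overlap, but the difference did not pass (log2FC 0.80 ± 0.42 SE, limma adjusted p = 0.238). With the deposited values the median of the 11 sites was 0.05.

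Of the 9 sites of miR171, 8 lay on GRAS factors, and of the 14 sites of miR172, 6 lay on AP2 factors. Median log2FC was -1.25 over the 9 and -0.49 over the 14, with 1 site lower and 0 higher in each. SCL6 (Solyc01g090950), a GRAS factor of meristem and shoot branching control, had 14.5, 18.5 and 9.99 scaled reads at its site of sly-miR171e at heat, against 68.8, 42.1 and 73.0 at drought (log2FC -2.02 ± 0.62 SE, limma adjusted p = 0.0296). Site 2 on the same transcript, of sly-miR171b-p3_mes, had 30.4, 30.8 and 25.4 at heat, against 6.66, 20.0 and 59.8 at drought, and overlapped. The difference between the sites was not tested. RAP2-7 (Solyc10g084340), an AP2 factor that delays flowering in Arabidopsis, had no read at its site of sly-miR172a at heat, against 6.66, 3.78 and 30.2 at drought, at least 10.3-fold lower (limma adjusted p = 0.0169). On another RAP2-7 transcript (Solyc11g072600) the heat libraries had 30.4, 18.5 and 26.4, against 18.9, 655 and 203 at drought. There the drought replicates spread widely and the difference did not pass (limma adjusted p = 0.0623). A further RAP2-7 transcript (Solyc04g049800), also of sly-miR172a, had the other sign and did not pass (log2FC 1.00, limma adjusted p = 0.419). The 14 sites of miR172 took 2.39 to 5.54% of the scaled reads at heat and 5.61 to 19.3% at drought.

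In the small RNA pathway, AGO2 (Solyc02g069260), an argonaute with a part in antiviral defence that is itself cut by sly-miR403-3p, rose. It had 705, 1067 and 273 scaled reads at heat, against 191, 170.0 and 351 at drought, and heat replicate 3 lay below drought replicate 3 (log2FC 1.39 ± 0.41 SE, limma adjusted p = 0.0278). With the deposited values its log2FC was 0.19 and did not pass. DCL1 (Solyc10g005130), which cuts miRNA precursors and is a target of miR162, had 10.1, 26.7 and 15.4 at heat, against 17.2, 28.6 and 36.2 at drought (limma adjusted p = 0.628). The AGO1 site (Solyc06g072300) had a log2FC of 0.90 ± 0.55 and that of AGO1B (Solyc03g098280) one of -1.50 ± 0.91 (SE; limma adjusted p = 0.351 and 0.343), both argonautes that hold most miRNAs. The 4 sites took 14.4 to 24.2% of the scaled reads at heat and 6.28 to 11.4% at drought, most of it at AGO2, and their median log2FC was 0.12.

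Of 15 sites of miR397, miR398 and miR408, miRNAs that accumulate when copper is short, 4 lay on the copper proteins SODCC.5, LAC3 and PAA2. At heat 1 of the 15 was higher and 1 lower, beside 7.28% of all sites each way. SODCC.5 (Solyc01g067740), a copper-zinc superoxide dismutase cut by sly-miR398b-3p_stu, had 89.8, 105 and 114 scaled reads at heat, against 38.3, 32.9 and 37.3 at drought (log2FC 1.48 ± 0.51 SE, limma adjusted p = 0.0462), though with the deposited values it did not pass (log2FC 0.29). Site 2 on the same transcript had 5.79, 6.16 and 6.36 at heat, against 1.11, 0 and 0 at drought, and just missed the threshold (limma adjusted p = 0.0519). Solyc01g104400, which has no annotation in the files and was assigned to sly-miR408b-3p_stu, had 1.45, 0 and 0 at heat, against 56.0, 9.71 and 11.0 at drought (log2FC -3.85 ± 0.91 SE, limma adjusted p = 0.00451).

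Growth-regulating factors support cell division in young leaves, and 10 of the 16 sites of miR396 lay on them. Of the 16, 1 was higher and 0 lower. GRF12 (Solyc01g091540) had 18.8, 20.5 and 3.63 scaled reads at heat, against 1.11, 0 and 0.549 at drought (log2FC 3.08 ± 0.93 SE, limma adjusted p = 0.0296). The most read one, GRF4 (Solyc12g096070), had 122, 152 and 125 at heat, against 73.2, 133 and 107 at drought, and overlapped. GRF1 (Solyc04g077510) and site 1 of GRF2 (Solyc02g092070), singled out after their values were seen, had opposite signs and did not pass. Their log2FC was -2.38 and 2.21 (limma adjusted p = 0.0712 and 0.0730). NAC100 (Solyc03g115850), a NAC factor of miR164, had 17.4, 6.16 and 18.2 at heat, against 0.555, 0 and 1.65 at drought (log2FC 3.09 ± 1.00 SE, limma adjusted p = 0.0423). UXS4 (Solyc01g066710), also assigned to miR164, had no read at heat and 0.540 to 1.10 at drought. Of 13 sites of miR159 and miR319, whose known targets are MYB and TCP factors, the only call was Solyc12g014120, with 439, 468 and 342 at heat, against 245, 133 and 188 at drought (limma adjusted p = 0.0244), and its log2FC was -0.031 with the deposited values. None of the 5 NF-YA sites of miR169 and none of the 3 sites of phosphate and sulfate supply passed. NFYA8 (Solyc08g062210), a subunit of a trimeric transcription factor, averaged 86.7 ± 14.0 at heat and 67.4 ± 28.0 at drought, and NFYA10 (Solyc01g006930) 17.8 ± 6.54 at heat and 21.9 ± 6.85 at drought (SD, n = 3 each). UBC24 (Solyc02g078210), which limits phosphate uptake and is cut by miR399, had 5.79, 8.21 and 8.18 at heat, against 14.4, 11.3 and 8.78 at drought (log2FC -0.57 ± 0.86 SE, limma adjusted p = 0.701). The most read site of the other families, on FBX6 (Solyc05g015520), averaged 21.3 ± 2.93 at heat and 22.74 ± 13.9 at drought (SD, n = 3 each).

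**Figure D3:**
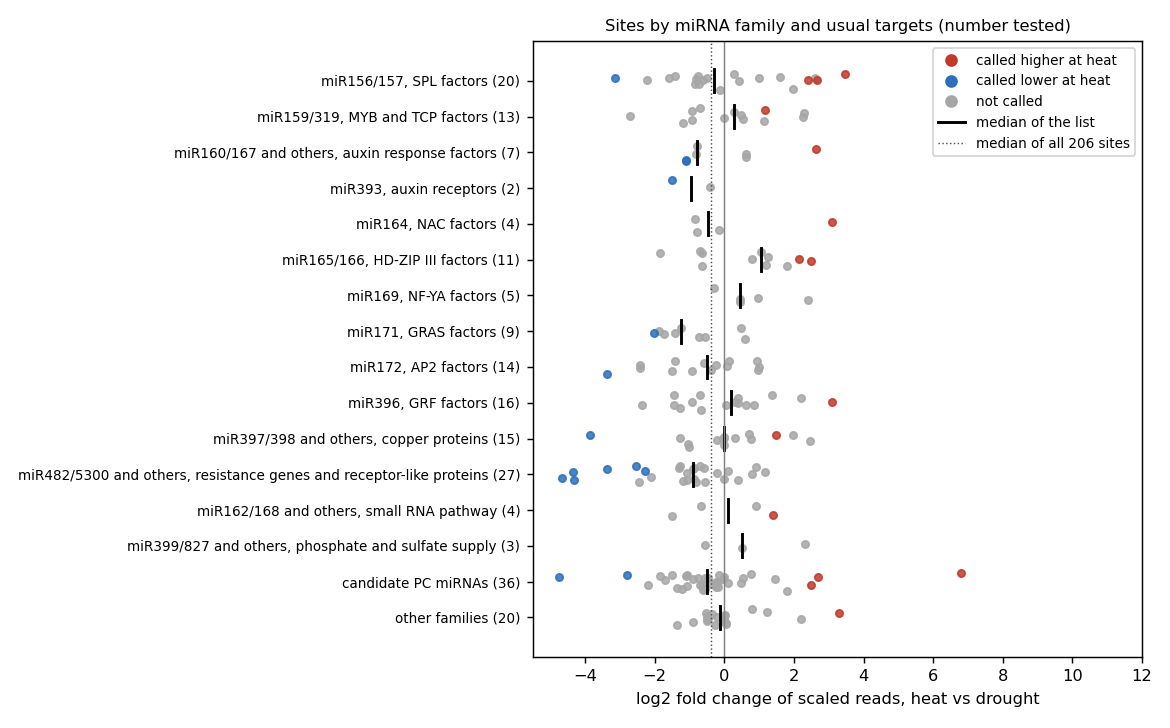
The log2FC of scaled reads, heat vs drought, of the 206 tested sites by the family of their miRNA, with the number of sites in parentheses. Points are sites (red called higher and blue called lower at heat, grey not called), bars are medians of the lists and the dotted line is the median of all sites (-0.37). The labels give the families and their usual targets, which not all sites of a family lie on. The families of resistance genes and receptor-like proteins had 6 sites called lower and 0 called higher, and miR165 and miR166 had 2 higher and 0 lower.

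Candidate PC miRNAs had 36 tested sites, of which 3 rose and 2 fell (median log2FC -0.51). The carbonic anhydrase Solyc02g086820, an enzyme that supplies CO2 and bicarbonate in the leaf, had the lowest log2FC, though the ratio of mean scaled reads was lower at other sites such as At4g27220. It held 0, 12.3 and 0 scaled reads at heat, against 54.9, 74.5 and 60.4 at drought (log2FC -4.75 ± 0.93 SE, limma adjusted p = 0.000511). Its candidate, PC-326-3p, averaged 0 normalized small RNA reads at heat and 0 at drought. AOS2 (Solyc11g069800), an allene oxide synthase of the jasmonate pathway, had no read at heat, against 8.32, 3.24 and 7.69 at drought, at least 4.87-fold lower. The sites that rose beside HSP22.7 were thinly read. CCMFC (Solyc11g039360), of cytochrome c assembly in mitochondria, had 11 reads over the heat libraries and 0 over the drought libraries, and At4g02820 (Solyc06g005140) had 18 and 0. The ribosomal protein S15-4 (Solyc09g083390), a site of sly-miR530_stu outside these lists, had 37.6, 22.6 and 21.8 scaled reads at heat, against 6.10, 0 and 2.20 at drought (limma adjusted p = 0.0167). Of the 30 called sites, 12 had a mean under 20 scaled reads in the group where they were higher.

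The combination and control libraries were not part of the contrast of heat and drought itself, though they entered the estimate of the spread. Their reads also counted towards the filter of 10 reads over 12 libraries, and all 12 were scaled together. The combination and control libraries set 38 °C against 26 °C in other plants, and differed in water too. Combination plants were dry and control plants irrigated, whereas heat plants were irrigated and drought plants dry. For combination vs control, 34 of 206 sites (16.5%) passed, 13 higher (6.31%) and 21 lower (10.2%). The sign was that of heat vs drought at 29 of the 30 called sites, beside 136 of all 206 (66%), and 16 of the 30 passed with that sign and 0 with the other. Combination libraries held 1407 to 2301 listed reads and control libraries 5259 to 6595, so both contrasts carry the same rescaling. At4g27220 had 0, 2.89 and 0 scaled reads at combination, against 25.2, 16.9 and 35.7 at control (log2FC -4.04, limma adjusted p = 0.00309). SCL6 had 11.7, 17.3 and 7.60 at combination, against 109, 103 and 68.6 at control (log2FC -2.88, limma adjusted p = 0.00309). The 6 libraries at 38 °C did not overlap with the 6 at 26 °C for 14 of the 206 sites (6.8%) and for 11 of the 30.

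Against control, heat changed 31 of 206 sites (15%), 7 higher (3.4%) and 24 lower (11.7%), while drought changed 0 (0%; limma, 20 at an unadjusted p under 0.05, and 5 with limma's voom). These contrasts share the control libraries, and each is given for itself. For heat vs control the balance of higher and lower sites rested on the scaling too. With the deposited values 2 sites were higher and 35 lower. With deposited values divided by the share of reads mapped, 21 were higher and 10 lower. Heat vs control gave log2FC 6.99 for HSP22.7, -4.15 for At4g27220, -2.64 for SCL6 and -2.06 for TIR1, and drought vs control gave 0.21, 0.21, -0.62 and -0.57 for the same sites. For SODCC.5 neither passed, with log2FC 0.67 for heat and -0.81 for drought.

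**Figure D4:**
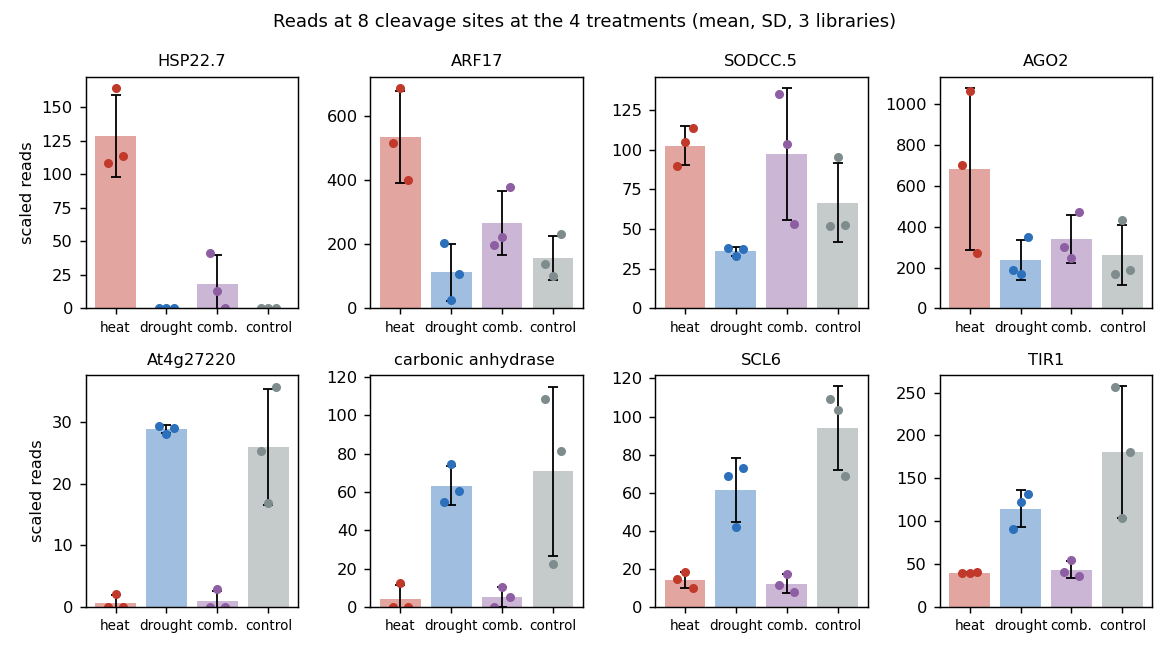
Scaled reads (vertical axes) at the sites of 8 transcripts at heat, drought, combination and control. Points are libraries, bars are means and error bars are SD (n = 3 each). HSP22.7 had reads at heat (109 to 164.2) and nearly none at drought or control, and At4g27220, the carbonic anhydrase, SCL6 and TIR1 were lower at heat and combination than at drought and control.

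A miRNA and its site need not move in opposite ways. Where the most abundant miRNA of a site could be tested in the small RNA libraries, its sign was opposite to that of the site for 69 sites (45.4% of those with a sign) and the same for 83, and 5 sites had a log2FC of 0. Among the called sites it was opposite for 9 of 25, which were 3 of 13 higher and 6 of 12 lower sites. Of 419 miRNA sequences tested, 54 (12.9%) passed for heat vs drought, 7 higher (1.67%) and 47 lower (11.2%). The 25 called sites involve 21 miRNAs, of which 1 passed. It was sly-miR398b-3p_stu, with 3767 ± 603 normalized reads at heat and 8677 ± 537 at drought (SD, n = 3 each; log2FC -1.21, limma adjusted p = 0.00108), beside the SODCC.5 site that rose. Others were level, such as sly-miR160a, with 6531 ± 1371 at heat and 6436 ± 189 at drought, whose ARF17 site rose, and sly-miR6027-3p, with 8243 ± 2268 at heat and 8157 ± 339 at drought, whose R1B-16 and R1B-17 sites fell. The log2FC of the 21 miRNAs ranged between -1.21 and 0.78. Another sequence named sly-miR398b-3p_stu, assigned to site 2 of SODCC.5, did not pass (log2FC -0.58, limma adjusted p = 0.856). The more abundant sly-miR398a-3p_stu did not pass either (log2FC 0.25, limma adjusted p = 0.81).

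**Figure D5:**
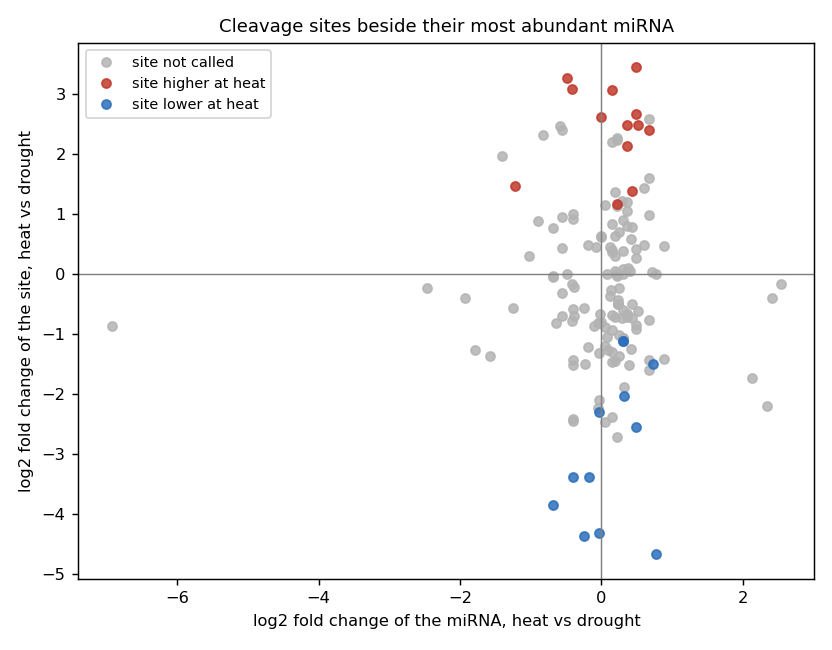
The log2FC of the site (vertical) and of its most abundant miRNA (horizontal), heat vs drought, for the tested sites whose miRNA could be tested. Each point is a site, and sites that share a miRNA share its horizontal value. Called sites (red higher, blue lower at heat) lie between -1.21 and 0.78 on the miRNA axis, and 9 of 25 have opposite signs.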

How the data were processed

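Degradome and small RNA libraries of tomato leaf (12 each of 36 in the series, 3 per treatment) were assigned to treatments from their labels. The authors found cleavage sites with CleaveLand and TargetFinder on ITAG transcripts and deposited 1 list per treatment. The deposited degradome and small RNA values are a signal, reads multiplied by 1 factor per library, with the normalization not given in the sources used here. The step of 1 read in each degradome library was taken as the largest value of which at least 90% of the distinct values are whole multiples (within 1e-06 reads), since the remainder are reads split between transcripts. This gave 35.6 to 54.7 normalized reads per read, and 1407 to 7498 listed reads per library, which limits the precision at thinly read sites. Rows of a transcript with equal values were joined as 1 site. Of the tested sites, 14 held reads split between transcripts, 2 of them called, and each was counted as its own site. For scaling, log ratios over the sites were averaged with trimming (trims 0.3 and 0.05).

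Sites with at least 10 reads over 12 libraries were tested with limma 3.58.1 in R 4.3.3 on log2(scaled reads + 1), fitting each treatment's mean over all 12 libraries, with the trend of variance on level and p-values adjusted by Benjamini and Hochberg over all sites. The log2FC is on that scale and understates changes of low sites. A fold with no reads in a group is a bound, the mean of the other group over that of 3 reads over the empty group, which like all limits covers counting error only. It does not cover reads that the authors' lists left out. miRNAs with at least 10 normalized reads in 3 libraries were tested likewise on the authors' scaling. Models of counts were not run, as the recovered values were not whole throughout. A target list holds the sites whose most abundant miRNA is of the family, whatever the transcript is. Named were the called sites, the sites the study names for heat vs drought and the most read site of each list. Some other sites of the same genes or lists are given beside these. The members, lists and this rule were chosen with earlier results of these data known. Columns of the authors' own comparisons were not used. Gene symbols are those of the files, miRNA names those of the study by sequence. Alternatives were other scalings, filters, pseudocounts, fits and tests, and each library left out in turn. Scripts were tested on simulated data. Python 3.11.15, pandas 2.3.3, numpy 2.4.6, scipy 1.17.1 and matplotlib 3.10.9 were used.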

Additional observations from a re-analysis of the deposited data

Results flagged for a closer look

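At site 1 of sly-miR171d on NSP2 (Solyc11g013150), a GRAS factor that in legumes acts in root nodule signalling, the effect of 38 °C differed between dry and irrigated plants by 3.94 ± 1.01 (SE) on the log2 scale (limma adjusted p = 0.0269). In irrigated plants the site had 10.1, 6.16 and 14.5 scaled reads at heat, against 75.7, 28.4 and 144 at control. In dry plants it had 63.5, 134 and 70.9 at combination, against 128, 27.0 and 11.5 at drought. It was 1 of 5 sites that passed this test of the difference (limma), and none of the 30 sites called for heat vs drought was among them.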

How the results depend on the processing

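The 30 calls for heat vs drought became 15 of 576 sites without a filter, 8 with only the 2 groups fitted, 16 with a pseudocount of 5, and 11 with the smallest value taken as 1 read, an alternative chosen after seeing the data. Leaving out 1 library gave 7 to 32 calls, with 2 libraries left in its group. For heat vs control (31) it gave 15 to 26, and for drought vs control (0) it gave 0 to 2. Drought vs control had 2 calls with the deposited values, 5 with voom and 1 without the trend. The log2FC of Solyc12g014120 turned to -0.031 with the deposited values and to -0.073 in the test of equal variance on them. The split was 22 higher and 12 lower with voom, 5 and 15 in the unadjusted test of equal variance, 12 and 15 with median-of-ratios scaling, and 11 and 15 with total listed reads. The replicate block gave 21 calls for sites and 51 for miRNAs. Replicate numbers did not pair the libraries on average. Correlations of same-numbered libraries were -0.20 to 0.24 for sites (mean -0.019) and -0.38 to 0.38 for miRNAs (mean 0.0007). Calls for miRNAs stayed between 42 and 55. The causes were not tested. The planned models of counts were not run. Of the tested sites, 53 had under 10 reads over the heat and drought libraries together, too few to show any but a large change.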
